A study of Mus musculus with 48 samples.

Results

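The genes described here are 10 genes of the inflammasome and the interleukin-1 (IL-1) family, Il1b, Il1rn, Il18, Il18bp, Casp1, Casp4, Nlrp3, Aim2, Pycard and Gsdmd, out of 49568 genes in the count table. They were chosen by symbol for their known roles, with earlier results of these data known, and all 10 had a row. The cells were RAW264.7, a mouse macrophage line, so every library came from 1 cell line. The study describes the libraries of a group as biological replicates from independent experiments, which were fewer than the libraries. The labels do not say which library belongs to which experiment, so the letter-labelled libraries of a group may share 1 experiment. The cultures received PBS, one of the synthetic peptides LE, SE or PE at 100 µg/ml, IFN-γ (the labels' IFNγ) at 5 ng/ml, or a peptide together with IFN-γ, each for 72 h. The peptides are copied from one region of the human HLA-DR β chain, LE from the allele DRb1*0301 that is tied to lupus, SE from DRb1*0401, an allele of the rheumatoid arthritis shared epitope, and PE from DRb*0402, taken as the protective one. No agent was common to all 8 groups.

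In each group GEO names 3 libraries by a letter and 3 by HLA and a number. All comparisons here rest on the former, the letter-labelled libraries, which held 16498562 to 26929356 counts each. The mean log2(CPM + 0.5) of 20 genes of the IFN-γ response was 7.03 to 7.38 in the 12 letter-labelled libraries with IFN-γ and 2.52 to 2.69 in the 12 without it (CPM, a gene's counts per 1000000 of the library's total). Of the 24 HLA-labelled libraries, 12 went against their label in this measure, and they are described apart, as labelled, at the end. In tests over both series together the only member called in any of the 16 comparisons was Il1rn, lower with PE + IFN-γ than with PE (log2 fold change -1.72, adjusted p 0.0410). Those tests include the 12 libraries against their label, and the share of all genes called in them is not given here. The count is therefore no result about the members. The RNA was that of macrophages: 9 of 10 macrophage markers averaged at least 1 CPM, with a summed level of 9877 to 12381 CPM without IFN-γ and 7082 to 9542 CPM with it. No marker of T cells, B cells, fibroblasts, epithelium or neutrophils averaged 1 CPM, and the summed level of any of these lists was at most 1.84 CPM. In bulk RNA a smaller number of cells of a kind and less RNA per cell cannot be told apart.

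An inflammasome is a protein complex that a sensor such as NLRP3 or AIM2 builds when it meets danger signals or cytosolic DNA. Through the adaptor ASC, the product of Pycard, it activates caspase-1 (Casp1), which cuts the precursors of IL-1β (Il1b) and IL-18 (Il18) and the pore-forming protein gasdermin D (Gsdmd). Caspase-11, encoded by mouse Casp4, senses cytosolic lipopolysaccharide and cuts gasdermin D directly. IL-1 and IL-18 are held in check by secreted antagonists, the IL-1 receptor antagonist (Il1rn) and the IL-18 binding protein (Il18bp). In macrophages Il1b and Nlrp3 are known as genes that NF-κB induces, while Casp1, Casp4 and Il18bp are known to respond to interferons.

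The members lie on 6 chromosomes of the mouse build GRCm38, and only Casp1 (chr9:5298517-5307265) and Casp4 (chr9:5308828-5336783) are neighbours, on the same strand with 1563 bases between them. The others are Il1b (chr2:129364570-129371139), Il1rn (chr2:24336853-24351494), Il18 (chr9:50554827-50581840), Il18bp (chr7:102014885-102018690), Nlrp3 (chr11:59541568-59566956), Aim2 (chr1:173350879-173466040), Pycard (chr7:127989708-127993867) and Gsdmd (chr15:75862327-75867408). Il18bp overlaps Numa1 on the opposite strand, which had 2795 to 5482 counts per library. Il18 likewise overlaps Bco2, at 38 to 82 counts. Whether strand was used in counting is not given in the sources used here, so reads from those stretches cannot be told apart.

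RefSeq promoter windows (GRCm38.p6, 250 bases before to 50 after a start site) were given for 9 of the 10 members, all but Gsdmd. The windows of the members called in a comparison are printed here because they hold the DNA around annotated start sites of genes whose RNA changed. Counts per gene do not show which start was used. For Casp4 and Il1rn, which have further starts, 1 start each is printed: Il1b (chr2:129371090-129371389, minus strand), Il18bp (chr7:102018183-102018482, minus strand), Casp1 (chr9:5298267-5298566, plus strand), Casp4 (chr9:5308599-5308898, plus strand), both starts of Nlrp3 (chr11:59541319-59541618 and chr11:59542436-59542735, plus strand) and the most upstream of the Il1rn starts (chr2:24336610-24336909, plus strand). Capitals mark matches to the NF-κB consensus (κB) on either strand, and lower case is the rest of the window.
Il1b: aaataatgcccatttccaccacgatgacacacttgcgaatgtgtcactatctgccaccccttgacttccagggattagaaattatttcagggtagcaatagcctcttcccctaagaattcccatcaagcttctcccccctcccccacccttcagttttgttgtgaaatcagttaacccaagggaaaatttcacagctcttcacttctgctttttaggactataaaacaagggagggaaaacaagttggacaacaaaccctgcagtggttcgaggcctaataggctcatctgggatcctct
Il18bp: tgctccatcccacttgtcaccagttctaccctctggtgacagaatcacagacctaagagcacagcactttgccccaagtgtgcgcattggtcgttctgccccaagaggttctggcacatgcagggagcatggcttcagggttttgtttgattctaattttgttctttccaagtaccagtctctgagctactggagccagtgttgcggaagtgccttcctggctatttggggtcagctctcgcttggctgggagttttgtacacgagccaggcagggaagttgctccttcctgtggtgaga
Casp1: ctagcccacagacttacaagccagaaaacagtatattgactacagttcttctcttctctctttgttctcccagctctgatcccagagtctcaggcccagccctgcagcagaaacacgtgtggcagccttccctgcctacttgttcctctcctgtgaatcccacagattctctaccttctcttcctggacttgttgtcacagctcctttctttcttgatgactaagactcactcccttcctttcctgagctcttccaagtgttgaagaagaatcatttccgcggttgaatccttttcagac
Casp4: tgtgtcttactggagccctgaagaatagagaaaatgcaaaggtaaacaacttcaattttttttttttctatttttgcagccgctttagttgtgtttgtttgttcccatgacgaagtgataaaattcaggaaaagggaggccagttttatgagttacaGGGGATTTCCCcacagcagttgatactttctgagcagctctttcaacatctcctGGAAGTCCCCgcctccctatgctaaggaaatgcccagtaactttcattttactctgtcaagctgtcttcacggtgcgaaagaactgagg
Nlrp3, first start: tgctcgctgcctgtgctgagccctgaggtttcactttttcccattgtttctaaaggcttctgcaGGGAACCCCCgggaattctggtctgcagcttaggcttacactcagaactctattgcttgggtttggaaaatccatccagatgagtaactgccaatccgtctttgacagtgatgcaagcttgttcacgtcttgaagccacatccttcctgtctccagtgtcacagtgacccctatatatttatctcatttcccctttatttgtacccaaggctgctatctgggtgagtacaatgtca
Nlrp3, second start: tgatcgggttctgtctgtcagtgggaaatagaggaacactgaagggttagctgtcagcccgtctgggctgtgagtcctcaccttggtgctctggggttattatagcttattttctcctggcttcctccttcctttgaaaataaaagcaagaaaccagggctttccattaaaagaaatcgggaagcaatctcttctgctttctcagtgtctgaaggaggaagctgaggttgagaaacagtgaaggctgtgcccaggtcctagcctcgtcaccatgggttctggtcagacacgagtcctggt
Il1rn: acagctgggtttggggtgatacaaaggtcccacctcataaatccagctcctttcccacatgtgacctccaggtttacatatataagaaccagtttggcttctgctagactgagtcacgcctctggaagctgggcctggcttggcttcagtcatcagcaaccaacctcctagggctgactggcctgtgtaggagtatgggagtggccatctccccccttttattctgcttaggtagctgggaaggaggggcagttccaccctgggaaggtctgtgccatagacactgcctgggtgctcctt
The Casp4 window held matches at -93, -92 and -39 bases from the start site, the first pair overlapping, and the window of the first Nlrp3 start held 1 at -186. The κB consensus was present in 8.46% of the 32851 promoter windows of the table. Neither the gamma-activated site TTCNNNGAA, in 8.30% of all windows, nor the interferon-stimulated response core, GAAA repeated after any NN and present in 3.44%, was found in a window of any of the 9 members on either strand. These are descriptions of letters in a short window and say nothing of factor binding. The Il18bp window lies inside the gene's GENCODE span, which on its minus strand begins at base 102018690, so DNA upstream of that base was not searched.

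Per exon base, the levels of the members spanned a wide range. Over the 24 letter-labelled libraries the mean level in CPM per kilobase of exon was 64.6 for Casp1, 57.0 for Gsdmd, 41.3 for Il1rn, 18.8 for Casp4, 18.0 for Aim2, 8.39 for Nlrp3, 5.62 for Il18, 4.26 for Il18bp and 0.205 for Il1b. Pycard had 0 counts in 24 of 24 libraries, where the floor of 3 counts corresponds to 0.111 to 0.182 CPM depending on the library. RAW264.7 cells are known to lack ASC. Caspase-1, its substrate gasdermin D and the IL-1 antagonist were the abundant transcripts, and the cytokine Il1b was near the floor.

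**Figure D1:**
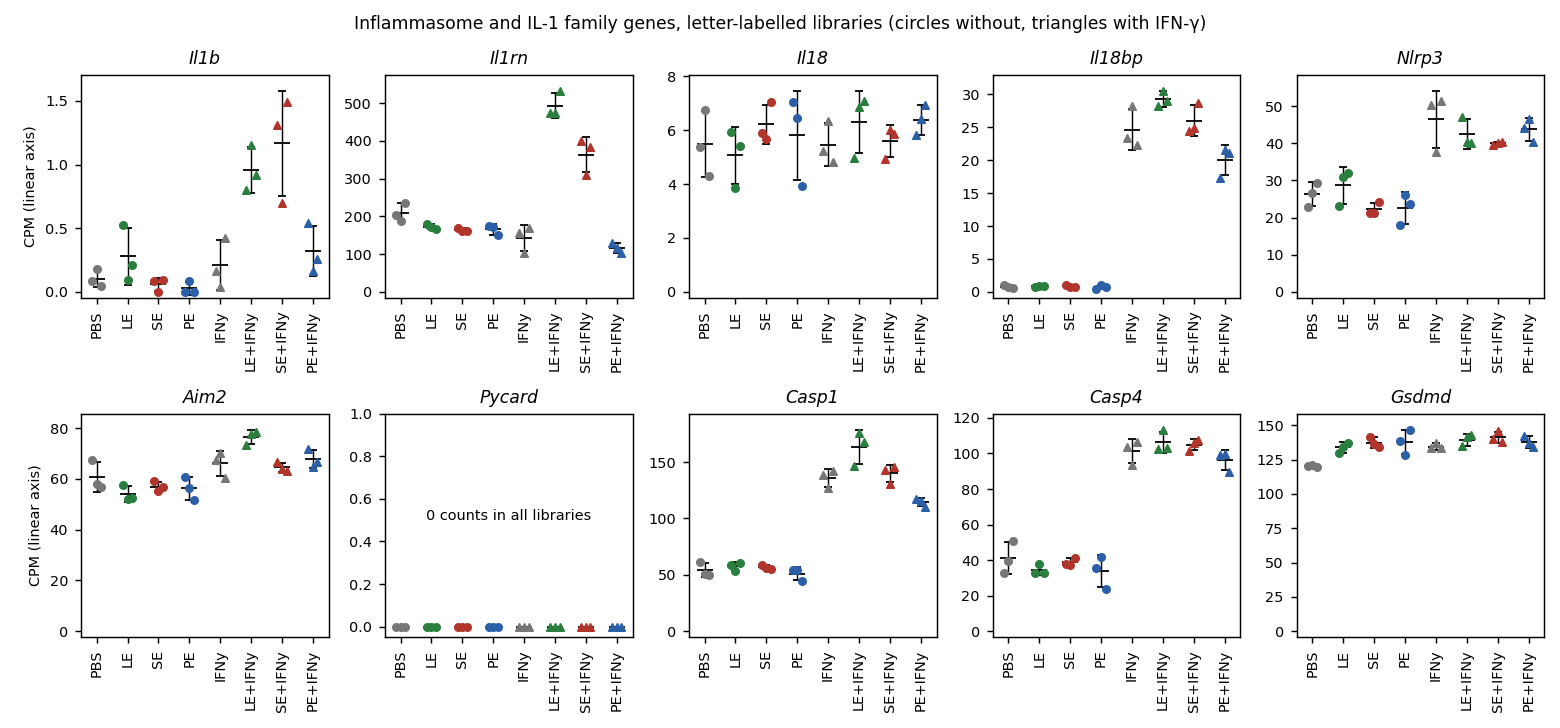
Level of each gene in CPM ( linear axis, own scale per panel) in the 24 letter-labelled libraries of 8 groups. Points are libraries, the horizontal mark and bars are the mean ± SD (n = 3). Il18bp, Casp1, Casp4 and Nlrp3 stand higher in all 4 groups with IFN-γ, Il1rn stands highest with LE + IFN-γ (474 to 533 CPM) and SE + IFN-γ (310 to 398 CPM), and Pycard is at 0.

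IFN-γ alone against PBS asked what the cytokine did without a peptide. To be called, a gene needed an adjusted p (Benjamini-Hochberg, edgeR's quasi-likelihood test) under 0.05 together with a fold change over 1.5. Of the 10 members 8 passed the filter on low counts, Il1b and Pycard being left out, and 4 of the 8 were called, all higher, beside 18.1% of the 12242 genes tested (9.79% called higher). The median log2 fold change was 0.51 over the 8 members and -0.01 over all genes tested. The members that rose were the IL-18 binding protein, both caspases and the sensor Nlrp3.

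Il18bp stood at 1.06, 0.725 and 0.563 CPM with PBS and at 23.3, 28.2 and 22.4 CPM with IFN-γ. The groups were far apart, with 8 to 25 counts in each of the 12 libraries without IFN-γ and 384 to 823 in each of the 12 with it. The log2 fold change of Il18bp was 4.97 (SE 0.23, adjusted p 5.13e-09, edgeR). Il18, the cytokine it binds, was at 5.36, 6.75 and 4.32 CPM with PBS and at 5.25, 6.34 and 4.81 CPM with IFN-γ. These ranges overlapped, and the difference of Il18 was 0.01 on the log2 scale with a 95% interval of -0.42 to 0.45. Per exon base the ratio of Il18bp to Il18 was 0.0366 to 0.0671 in the PBS libraries and 1.51 to 1.58 in the IFN-γ libraries, so that the antagonist went from the minor to the major transcript of the pair.

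Casp1 stood at 61.1, 51.1 and 49.95 CPM with PBS and at 138, 127 and 142 CPM with IFN-γ, a log2 fold change of 1.35 (SE 0.09, adjusted p 3.35e-07). Casp4 stood at 32.7, 39.7 and 50.6 CPM with PBS and at 104, 93.7 and 106 CPM with IFN-γ, a log2 fold change of 1.32 (SE 0.13, adjusted p 1.55e-05). In both caspases every IFN-γ library lay above every PBS library. Per exon base Casp1 exceeded Casp4 2.45 to 4.62 times with PBS and 3.30 to 3.36 times with IFN-γ, and these ranges overlapped. Nlrp3, which rose less, was at 22.9, 26.5 and 29.4 CPM with PBS and at 50.4, 37.5 and 51.4 CPM with IFN-γ (log2 fold change 0.84, SE 0.13, adjusted p 0.000441).

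The other members did not meet both criteria. Il1rn was at 204, 189 and 237 CPM with PBS and lower, at 155, 102 and 169 CPM, with IFN-γ, with no overlap between the groups. Its log2 fold change of -0.54 (SE 0.15, adjusted p 0.0152) passed the p threshold and missed the fold minimum. The call of Il1rn turned on single libraries: without PBS replicate 2, IFN-γ replicate 1 or IFN-γ replicate 3 the value was -0.61, -0.60 or -0.70 and was called. Gsdmd, at 120 to 121 CPM with PBS and 133 to 137 CPM with IFN-γ, differed by 0.18 on the log2 scale (adjusted p 0.0424), under the fold minimum. Aim2, a sensor of cytosolic DNA, differed by 0.14 with an interval of -0.05 to 0.33. Il1b had 1 to 4 counts per library with PBS and 1 to 9 with IFN-γ, and the ratio of the summed counts per total was 1.92 with an exact 95% interval of 0.723 to 5.61, which covers counting error only.

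IFN-γ was also added to each peptide, and the comparison with that peptide alone asked whether the same members moved. Of 9 members tested (Pycard was filtered out), 5 were called with LE, 6 with SE and 5 with PE, all higher, beside 35.1%, 26.3% and 21.0% of all 12947 genes tested (19.1%, 15.1% and 12.1% called higher). One of the called members each time was Il1b, which had 0 to 12 counts per library with a peptide alone. It passed the filter through the LE + IFN-γ and SE + IFN-γ groups, where it was high, and had 4 to 12 counts per PE + IFN-γ library. Without it the calls were 4, 5 and 4 of 8 members. The median log2 fold change of those 8 was 1.01, 0.96 and 0.56, and that of all genes was within 0.02 of 0 in each. Il18bp rose by 5.06, 4.91 and 4.71 on the log2 scale with LE, SE and PE, Casp1 by 1.48, 1.26 and 1.11, and Casp4 by 1.60, 1.39 and 1.45, with adjusted p of at most 1.21e-09. Nlrp3 rose by 0.81 with SE and 0.90 with PE. With LE its value was 0.55 (adjusted p 0.000529), under the fold minimum, and it was called without LE replicate 2, LE replicate 3 or LE + IFN-γ replicate 2 (0.60, 0.65 and 0.59). Over all 12 libraries with IFN-γ, Casp4 ran from 89.6 to 113 CPM and Nlrp3 from 37.5 to 51.4 CPM, above all 12 without it (24.002 to 50.6 and 17.9 to 32.0 CPM). The plot of IFN-γ effects shows these members side by side.

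**Figure D2:**
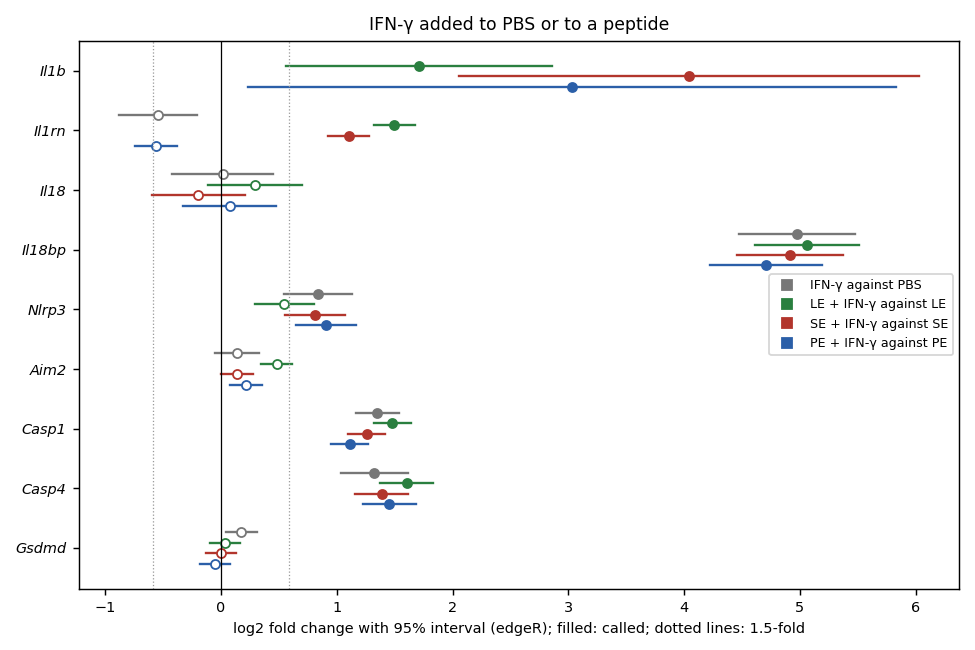
Log2 fold change (x axis) of 9 genes (y axis) when IFN-γ was added to PBS, LE, SE or PE, with 95% intervals from edgeR on 3 libraries per group. Filled points were called and open points were not, and dotted lines mark 1.5-fold. Il18bp, Casp1 and Casp4 lie to the right in all 4 comparisons, while Il1rn lies to the right with LE (1.498) and SE (1.10) and to the left with PBS (-0.54) and PE (-0.56).

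Il1rn, the IL-1 receptor antagonist, moved in opposite directions depending on the peptide. Without IFN-γ it stood at 179, 171 and 166 CPM with LE, at 170, 161 and 162 CPM with SE and at 175.5, 172 and 150 CPM with PE. With IFN-γ it stood at 474, 474 and 533 CPM with LE, at 398, 310 and 383 CPM with SE and at 130, 118 and 103 CPM with PE. It was thus higher with IFN-γ in every LE and SE library and lower in every PE library than in the same peptide alone. The log2 fold change was 1.498 with LE (SE 0.09, adjusted p 6.05e-12) and 1.10 with SE (SE 0.09, adjusted p 9.74e-10). With PE it was -0.56 (SE 0.09, adjusted p 1.86e-05), under the fold minimum, and called at -0.61 without PE replicate 3 and at -0.63 without PE + IFN-γ replicate 1.

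The interaction, which asks whether a peptide changed the effect of IFN-γ, was tested over all 8 groups. For Il1rn it was 2.04 on the log2 scale with LE (SE 0.18, adjusted p 2.13e-08), 1.65 with SE (SE 0.18, adjusted p 1.14e-06) and -0.02 with PE (95% interval -0.40 to 0.35). Il1rn was the only member called with LE and with SE, 1 of 9 in each, beside 18.9% and 7.96% of all genes (11.3% and 5.08% called higher). With PE no member was called by edgeR or DESeq2 and neither was any of the 13096 genes (0%), although 2 of 9 members (Casp1 and Gsdmd) and 8.19% of the genes (1073) had an unadjusted p under 0.05. Aim2 passed the p threshold with LE at a small value (0.34, adjusted p 0.00849). Il1b passed the filter in this fit through the LE + IFN-γ and SE + IFN-γ groups, where it was high. Without it the calls were 1 of 8 members each with LE and SE. When IFN-γ replicate 3 (9 Il1b counts, the most of its group) was left out, Il1b was called with SE. Its value was then 4.07 (adjusted p 0.0385, edgeR), against 3.12 and 0.0899 with all libraries. That call turned on 1 library of a gene near the floor.

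The peptides alone against PBS asked for an effect without IFN-γ. No member was called by edgeR or by DESeq2 with LE, SE or PE, beside 0.0242%, 1.92% and 3.13% of the 12420 genes tested. Il1rn and Gsdmd had an unadjusted p under 0.05 with each peptide, 2 of 8 members tested, beside 15.7%, 32.0% and 35.5% of all genes. Il1rn was lower than with PBS, with log2 fold changes of -0.24, -0.28 and -0.25 with LE, SE and PE (adjusted p 0.225, 0.0315 and 0.0337). Gsdmd was 0.20, 0.26 and 0.28 higher (adjusted p 0.227, 0.0235 and 0.0143). In Gsdmd the 3 PBS libraries (119.6 to 121 CPM) lay below all 21 others (129 to 146 CPM), yet its group means spanned only a 1.17-fold range. For the other members every interval against PBS reached 0, and the interval of Il18bp with PE, -0.83 to 0.81, was the widest. Il1b, which the filter left out, summed to 18 counts with LE, 4 with SE and 2 with PE against 7 with PBS. The ratios were 2.74 (exact 95% interval 1.09 to 7.77), 0.615 (0.132 to 2.42) and 0.314 (0.0318 to 1.65). These intervals cover counting error only and leave out the spread between libraries. With LE, 12 of the 18 counts came from 1 library.

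Peptide plus IFN-γ against IFN-γ alone asked what each peptide added. Of 9 members tested, 2 were called with LE, 2 with SE and 0 with PE, beside 15.5%, 7.39% and 0.629% of the 12720 genes tested (9.58% and 5.01% called higher with LE and SE). Without Il1b, which is near the floor, the calls were 1, 1 and 0 of 8. The median log2 fold change of those 8 was 0.22, 0.07 and -0.05, and that of all genes was within 0.02 of 0 in each. The members that rose were Il1rn and Il1b, the antagonist and one agonist of the same receptor. With PE, DESeq2 also called 0, and 2 of 9 members (Il18bp and Casp1) had an unadjusted p under 0.05, beside 28.1% of all genes.

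Il1rn rose by 1.81 on the log2 scale with LE (SE 0.13, adjusted p 1.21e-08) and by 1.38 with SE (SE 0.13, adjusted p 5.91e-07), and its value with PE was -0.26 (interval -0.55 to 0.03). Every LE + IFN-γ and SE + IFN-γ library stood above every library of the other 6 groups. In the order of group means LE + IFN-γ came first (494 ± 34.2 CPM, SD, n = 3), then SE + IFN-γ (364 ± 46.9) and PBS (210 ± 24.3), and neighbours in this part of the order did not overlap. Below PBS the groups with a peptide alone and IFN-γ alone overlapped.

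Il1b had few reads. Its counts were 21, 31 and 21 in the LE + IFN-γ libraries, 32, 16 and 38 with SE + IFN-γ, 12, 4 and 6 with PE + IFN-γ and 4, 1 and 9 with IFN-γ. The LE and SE libraries with IFN-γ all lay above the rest, at 0.701 to 1.49 CPM against at most 0.542 CPM in any of the other 18. The log2 fold change was 2.24 with LE (SE 0.59, adjusted p 0.00172), 2.54 with SE (SE 0.58, adjusted p 0.000885) and 0.67 with PE (interval -0.74 to 2.07). Il1b passed the filter on low counts in this fit through the groups in which it was high. The summed counts rose 4.80-fold (exact 95% interval 2.69 to 9.21) with LE and 5.91-fold (3.34 to 11.3) with SE. These 2 intervals cover counting error only and leave out the spread between libraries.

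**Figure D3:**
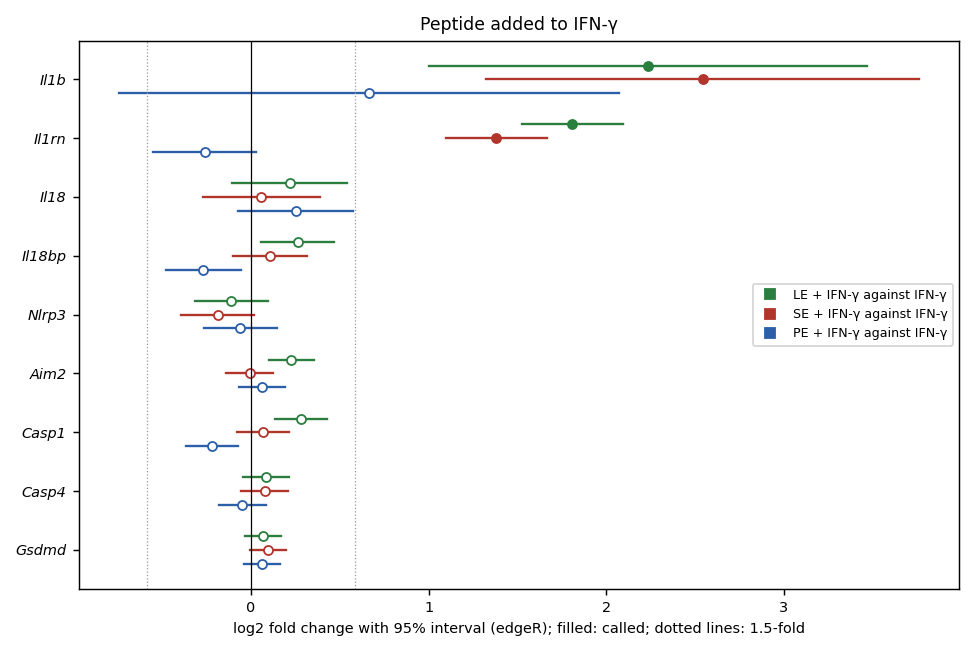
Log2 fold change (x axis) of 9 genes (y axis) when LE, SE or PE was added to IFN-γ, against IFN-γ alone, with 95% intervals from edgeR on 3 libraries per group. Filled points were called, open points were not, and dotted lines mark 1.5-fold. Il1b and Il1rn lie to the right with LE and SE, and the intervals of all other members lie within the dotted lines.

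Against the peptide alone, the summed Il1b counts with IFN-γ were 3.35-fold higher with LE (exact 95% interval 1.98 to 5.97), 18.4-fold with SE (6.94 to 69.1) and 9.61-fold with PE (2.36 to 84.3). The SE and PE groups without IFN-γ summed to 4 and 2 counts, so the upper ends are loose, and the intervals cover counting error only. The call of Il1b with PE was lost without PE replicate 1 (2.49, adjusted p 0.0588) or PE + IFN-γ replicate 1 (2.47, adjusted p 0.0758), against 3.03 and 0.0139 with all libraries. The largest single count without IFN-γ was 12, in an LE library whose replicates had 2 and 4. Despite its rise, Il1b stayed far under its antagonist: per exon base Il1rn exceeded Il1b 142 to 204 times in the LE + IFN-γ libraries and 88.5 to 153 times in the SE + IFN-γ libraries.

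The sensors, caspases and gasdermin changed little when a peptide joined IFN-γ. Casp1 was at 147, 176 and 168 CPM with LE + IFN-γ, at 143, 131 and 146 CPM with SE + IFN-γ and at 117, 115 and 111 CPM with PE + IFN-γ. All LE libraries lay above and all PE libraries below the IFN-γ libraries (127 to 142 CPM). Against IFN-γ the value of Casp1 was 0.28 with LE (adjusted p 0.00240), 0.07 with SE (0.486) and -0.22 with PE (0.0501), so none reached the fold minimum. Il18bp with LE (0.26, adjusted p 0.0315) and Aim2 with LE (0.23, adjusted p 0.00480) also passed the p threshold alone. Casp4, Nlrp3, Gsdmd and Il18 gave intervals that held 0 with every peptide, with the widest for Il18 at -0.11 to 0.54 (LE) and -0.07 to 0.58 (PE).

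The peptides cover the same region of the β chain in different alleles, and the 3 pairs were compared at the same dose and time in the presence of IFN-γ. LE against SE gave no called member of 9 by edgeR or by DESeq2, beside 4.93% of all genes, with 3 members (Il1rn, Casp1 and Aim2) at an unadjusted p under 0.05 beside 45.2% of all genes. Il1rn was 0.43 higher on the log2 scale with LE than with SE (interval 0.15 to 0.71, adjusted p 0.0185), Casp1 0.21 (adjusted p 0.0231) and Aim2 0.24 (adjusted p 0.00682), all under the fold minimum. The difference of Il1b between LE and SE was -0.31 with an interval of -1.11 to 0.50. LE against PE called 2 members, beside 21.6% of all genes (12.7% higher), and SE against PE called 2, beside 7.59% (5.25% higher). In both pairs these were Il1rn (2.07 for LE, 1.64 for SE) and Il1b (1.57 for LE, 1.88 for SE), the latter at 4 to 12 counts per PE + IFN-γ library and past the filter through the LE and SE groups, where it was high.

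Il1b for LE against PE missed the threshold without PE + IFN-γ replicate 2 (1.24, adjusted p 0.0506). Il18bp was 0.53 higher with LE than with PE (adjusted p 0.000161) and Casp1 0.50 higher (adjusted p 7.20e-06), both under the fold minimum. Il18bp was called at 0.59 without PE + IFN-γ replicate 2 or replicate 3. SE against PE gave smaller values for the same genes, 0.38 for Il18bp (adjusted p 0.00728) and 0.29 for Casp1 (adjusted p 0.00346). For Gsdmd, Nlrp3 and Il18 all 3 pairs had intervals that held 0.

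Across the groups with IFN-γ, Il18bp ran from 17.4 to 30.6 CPM. The 3 PE + IFN-γ libraries (17.4, 21.5 and 21.2 CPM) were the lowest 3 of the 12 and the ratio to Il18 per exon base was 1.01 to 1.15 there, against 1.40 to 1.93 in the other groups with IFN-γ. Il18 itself stayed between 3.87 and 7.07 CPM in all 24 libraries, and its group means spanned a 1.26-fold range. Aim2 was highest with LE + IFN-γ, at 73.5, 77.8 and 78.5 CPM, above all 21 other libraries (51.9 to 71.9 CPM). The PBS value of Aim2 ranged from 56.8 to 67.6 CPM.

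A wider list of 53 genes of the pathway, put together from textbook roles with earlier results of these data known, had 49 in the table. Against PBS, IFN-γ called 5 of 37 tested genes higher and 4 lower, beside 18.1% of all genes called and 9.79% called higher, with a median log2 fold change of -0.06. Among receptors, the signalling IL-1 receptor Il1r1 rose from 0.248 CPM in the mean (1 to 9 counts per library) to 2.61 CPM (edgeR, 3.36 on the log2 scale, adjusted p 8.68e-05). Il1r1, 1 of the 5 genes called higher, passed the filter on low counts through the IFN-γ group, where it was high. Sigirr, an inhibitory receptor of the family, rose by 1.33, and the IL-33 receptor Il1rl1 fell by 0.60. Among sensors the DNA sensor Ifi204 rose by 2.06 and the nucleic acid sensor Zbp1 by 4.90, while Naip6 fell by 0.61. Among regulators the protease inhibitor Serpinb9 rose by 2.65, and Txnip, an NLRP3 partner, fell by 0.71 and the NF-κB inhibitor Tnfaip3 by 0.86.

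With LE added to IFN-γ, 7 of 40 genes of that list were called higher and 1 lower, with SE 6 and 1, and with PE 1 and 0, beside 15.5%, 7.39% and 0.629% of all genes called, with medians of 0.07, -0.02 and -0.09. Il1a, the other IL-1 receptor agonist, had 61 to 65 counts with LE + IFN-γ, 16 to 28 with SE + IFN-γ, 7 to 12 with PE + IFN-γ and 6 to 11 with IFN-γ. Like Il1b it passed the filter through the groups in which it was high. Its calls with LE and SE, part of the counts above, are therefore no support for the list. It rose by 2.91 on the log2 scale with LE (SE 0.35, adjusted p 5.42e-07) and by 1.53 with SE (SE 0.37, adjusted p 0.00264), and its difference between LE and SE was called as well (1.38, adjusted p 0.000662). Il1r1 fell by 1.15 with LE and 0.89 with SE. The IL-1 signalling kinase Irak2 rose by 0.84 and 0.70, Tnfaip3 by 1.52 and 1.29, Ifi204 by 0.89 and 0.73, Zbp1 by 0.63 and 0.68 and Serpinb9 by 0.86 and 0.78. Serpinb1a, at 3 to 18 counts in the libraries with IFN-γ, rose with LE (1.38, adjusted p 0.0160 by edgeR). That call, also part of the count with LE, rests on few reads. With PE the 1 called gene was Sigirr (0.80, adjusted p 0.00655).

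**Figure D4:**
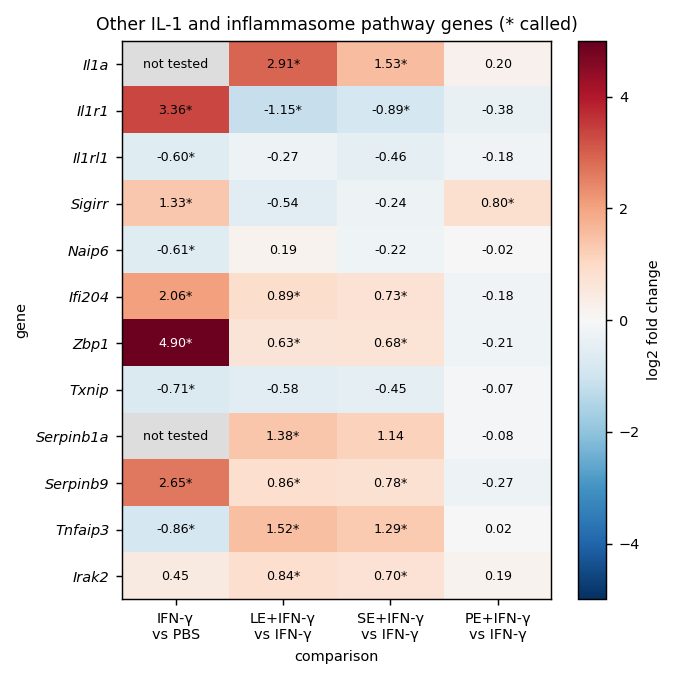
Log2 fold change (colour scale and printed value) of the 12 genes of the wider list (rows) called in at least 1 of 4 comparisons (columns), from edgeR on 3 libraries per group. An asterisk marks a called value and grey marks genes removed by the filter on low counts. The LE and SE columns share their signs of call for Il1a, Il1r1, Ifi204, Zbp1, Serpinb9, Tnfaip3 and Irak2, and share the IFN-γ libraries as control.

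The genes whose level over the 24 letter-labelled libraries ran most like that of a member were found by Pearson's r of log2 values among 8632 genes, as a description in which all points share the 8 treatments. For Il1rn they were Nckap1l (0.969), Lhfpl2 (0.960) and Bhlhe40 (0.949). For Il18bp they were Gbp4 (0.995), Gbp3 (0.995) and C1qc (0.995), for Casp1 Clec7a (0.987), Gbp2 (0.987) and Gbp3 (0.987), and for Casp4 Ifi203 (0.992), Ifi202b (0.990) and Tes (0.986). For Nlrp3 the nearest was Btbd19 (0.946), for Aim2 Ccz1 (0.914), for Il1b Odc1 (0.899), for Gsdmd Nelfe (0.863) and for Il18 Snapc1 (0.782). The genes named for Casp1 and for Casp4 differed, all at r of 0.986 to 0.992, and a difference between the caspases was not tested.

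The HLA-labelled libraries, described as labelled and with no test, gave the largest values of several members. Il1b had 200 to 219 counts (8.39 to 9.35 CPM) in the libraries labelled LE and 69 to 117 (3.22 to 5.22 CPM) in those labelled PE, more than in any letter-labelled library. Il1rn was at 838 ± 47.3 CPM (SD, n = 3) in the libraries labelled LE and 625 ± 98.3 CPM in those labelled PE. The IFN-γ response was 7.33 to 7.51 in these libraries labelled without IFN-γ, and 2.38 to 2.60 in those labelled IFNy or SE+IFNy. Casp1 and Il18bp went with that response rather than with the label, as the plot of both series shows. Pycard had 0 counts in 18 of these 24 libraries and at most 4.

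**Figure D5:**
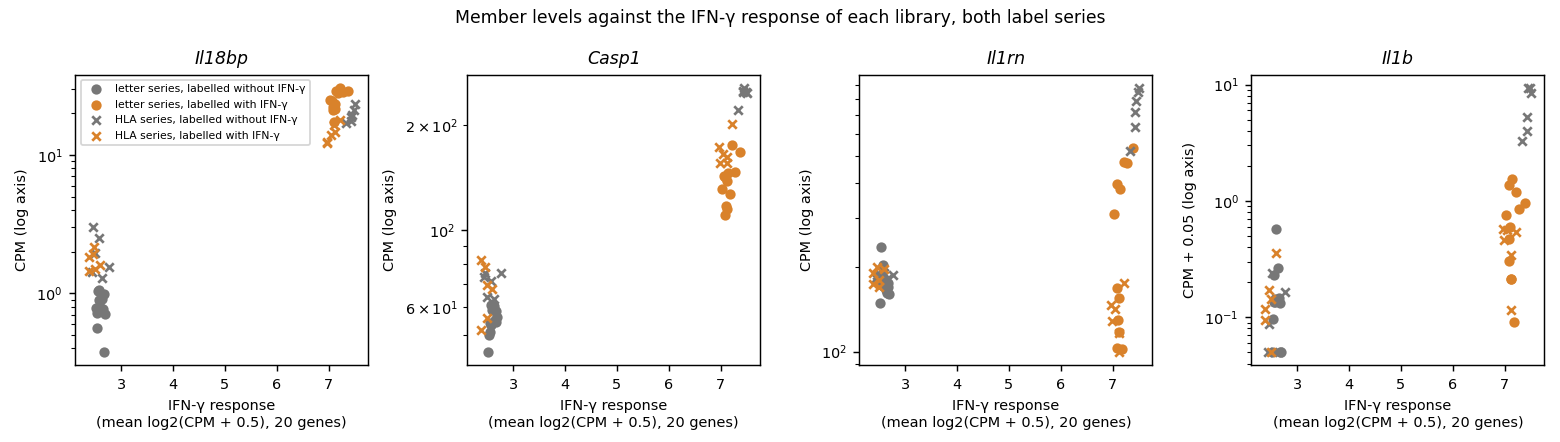
Level of Il18bp, Casp1, Il1rn and Il1b (y axis, CPM on a log axis, with 0.05 added for Il1b) against the mean log2(CPM + 0.5) of 20 IFN-γ response genes (x axis) in each of 48 libraries. Circles are letter-labelled and crosses HLA-labelled libraries, grey labelled without and orange with IFN-γ. The letter-labelled libraries split by label, while 6 grey crosses (labelled LE or PE) lie at 7.33 to 7.51 and 6 orange crosses (labelled IFNy or SE+IFNy) at 2.38 to 2.60.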

How the data were processed

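RAW264.7 RNA was sequenced in 48 libraries of 8 groups, and the deposited table holds each gene's raw, whole-number read counts (49568 genes), which the authors had not normalized. By the study's methods, stranded libraries were made from poly(A) RNA, and uniquely mapped reads were counted with featureCounts on GENCODE M12. The submitters' processing notes name the build GRCm38.p5 and DESeq2 1.16.1 in R 3.4.1. Counting unique reads lowers near-identical genes. Among the names, 26 had been turned into dates and 4 rows repeated a name. All 48 columns were matched to a sample by name. The HLA columns stand beside the letter columns in an order that differs from their labels, and no mapping was drawn from it.

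A letter-labelled library held between 16498562 and 26929356 counts, an HLA-labelled one between 14115928 and 42574154. Tests used edgeR 4.0.16 in R 4.3.3 (quasi-likelihood F test, TMM, filterByExpr) on the letter-labelled libraries, with Benjamini-Hochberg adjustment over all genes tested in a comparison, and scripts were tested on simulated counts. IFN-γ against PBS was fitted on 2 groups, peptides alone against PBS on 4, peptides with IFN-γ on 4, peptide with IFN-γ against peptide on 6, and interactions on 8. P-values measure the spread between these libraries. Ratios of summed Il1b counts have exact binomial 95% intervals, which cover counting error and not the spread between libraries. Levels per length use exon unions of GENCODE M21, another release of the same build. Replicate pairs differed by more than sampling noise (chi-square per degree of freedom at least 3.89), so none was taken for a duplicate. Alternatives were DESeq2 1.42.0, RLE scaling, no filter, 1 fit of all groups, both label series, a replicate block, each library left out, and TMM-scaled levels. All 10 members, the wider list and the markers were chosen with earlier results of these data known. The members are all named, and genes of the wider list are named where called in IFN-γ against PBS or in peptide with IFN-γ against IFN-γ.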

Additional observations from a re-analysis of the deposited data

Results flagged for a closer look

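The effect of IFN-γ on Il1rn differed between a culture with LE and one with PBS by 2.04 on the log2 scale and between SE and PBS by 1.65, in edgeR's interaction test over all 8 groups. It was higher in 3 of 3 LE and 3 of 3 SE libraries with IFN-γ than in any library of the same peptide alone, and lower in 3 of 3 IFN-γ libraries than in any PBS library.

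In the HLA-labelled libraries, which no comparison used alone, 9 members stood higher in all 3 libraries labelled LE than in all 3 labelled PBS, every member but Pycard. The same held for 8 members with the label PE (all but Il18 and Pycard), 6 with LE+IFNy, 5 with PE+IFNy and 1 (Casp1) with SE. Of the 11877 genes with a mean of at least 1 CPM in these libraries, 9 of them members, 25.8%, 28.9%, 27.7%, 22.2% and 5.71% did so with LE, PE, LE+IFNy, PE+IFNy and SE. Lower than in all PBS-labelled libraries were Il1rn with LE+IFNy (beside 23.6% of those genes) and PE+IFNy (23.2%), Nlrp3 with IFNy (8.27%), and Casp4 and Nlrp3 with SE+IFNy (16.3%). Of these libraries 12 of 24 go against their label in the IFN-γ response, and no test was run.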

How the results depend on the processing

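RLE scaling, DESeq2, no filter on low counts and 1 fit of all 8 groups left every member on the same side of the threshold in all comparisons in which it was tested. DESeq2 gave no adjusted p for 16 values. Those could not be called by DESeq2, so their agreement with edgeR was fixed, and the comparisons they fall in are not given here. The same replicate numbers occur in all groups. Same-numbered letter-labelled libraries deviated together weakly (median r 0.049, -0.114 to 0.235 over 84 pairs, 25 of them above 0.1). Pairs with other numbers did so less (median r -0.023, -0.223 to 0.241 over 168 pairs, 12 of them above 0.1). Of the 24 libraries, 16 correlated best with their own number. Same-numbered libraries also share a run of letters (A to H, I to P or Q to X). Whether they share an experiment or a batch is not given. The main tests used no block, and the replicate block changed no call of a member (4 for IFN-γ against PBS, as without it). With both label series together 0 members were called in the comparisons with calls above and in both interactions, except 1 in PE + IFN-γ against PE. Values then turned for LE + IFN-γ against LE in Il1b (-2.79), Il1rn (-0.76) and Casp1 (-0.0019), for PE + IFN-γ against PE in Il1b (-2.83) and Casp1 (-0.061), and for the LE interaction in Il1rn (-0.52). This alternative includes the 12 HLA-labelled libraries that go against their label. The share of all genes called in it is not given here, so its counts of calls are no result about the members. Leaving out each library gave 4 to 5 called members for IFN-γ against PBS, 2 to 3 for LE against PE, 5 to 6 and 4 to 6 for IFN-γ added to LE and PE, and 1 to 2 for the SE interaction. Of 1815 values of single genes, 118 without a call changed sign and stayed without one. Scaling levels by TMM moved 3 of 80 group means by over 1 SD and none by more than 3.92%. Depth limits Il1b, at most 38 counts per library, and Pycard, for which 0 counts allow up to 3.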
